A study of Mus musculus with 516 samples.

Results

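The genes described are 7 that sensory neurons are known to induce after axon injury: the transcription factors Atf3, Jun, Sox11, Klf6, Smad1 and Stat3, and the stress gene Gadd45a. They were taken by name, with earlier results of these data known, and all 7 were present among the 11251 genes of the count table. Expression had been measured by RNA sequencing in 516 single cells from the dorsal root ganglia of mice, which hold the cell bodies of the sensory neurons of body and limbs. There were 273 cells of the inbred strain CAST/Ei, 99 of them cultured and the rest naive, and 243 cells of the inbred strain C57BL/6, 45.7% of them cultured and 54.3% naive. Naive cells were captured straight after dissociation, which itself cuts the axons. Cultured cells, labelled as injured and described as an in vitro axotomy model, had grown on bare plastic for 48 h, with the mitotic inhibitor ara-C from 24 h on, and were lifted with trypsin before capture. All 4 groups therefore share dissection, dissociation and a Percoll step of density 1.04, and a cultured group differs from its naive one in time in culture, substrate, ara-C and trypsin at once. The labels name no allele, age, animal, culture or chip, so each group counted as 1 sample and no difference was tested.

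After a peripheral axon is cut, kinase signals that include the JNK cascade and gp130 receptors reach the cell body and switch on transcription factors, and this response accompanies regrowth of the axon. Jun and Atf3 are basic leucine zipper proteins that pair with each other and with Fos-type partners on AP-1 and cyclic AMP response elements, and both are standard markers of injured sensory neurons. Sox11, a SOX factor of developing neurons, and Klf6, a zinc finger factor, promote axon growth. Smad1 carries bone morphogenetic protein (BMP) signals to the nucleus, Stat3 carries gp130 cytokine signals, and Gadd45a encodes a small protein of the growth arrest and DNA damage response. Jun, Atf3 and Klf6 also belong to the genes that many cell types induce quickly during tissue dissociation.

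The start regions of these genes were searched because the AP-1 and ATF proteins among the 7 bind short DNA elements. The 4 stretches shown are those that hold a variant chosen after the windows had been read. RefSeq (GRCm38.p6) gave a promoter window for all 7, and the 250 bases before each start were searched on both strands for 5 motifs. The cyclic AMP response element TGACGTCA was in 0 of the 7 windows and in 1.55% of all 32851 windows, the AP-1 site TGANTCA in 0 of 7 and in 6.75% of all, and the STAT site TTCNNNGAA in 0 of 7 and in 7.02% of all. A pair of variants of the first element was added after the windows had been read, so their shares below are no test. TGACATCA was found in the windows of Jun, Klf6 and Sox11 and in 2.93% of all windows, and TTACGTCA in that of Atf3 and in 0.447% of all. No match overlapped another motif. Capitals below mark the matches, which lie 10 (Atf3), 45 (Jun) and 42 (Sox11) bases before the start and farther from it in Klf6, and the Sox11 match reads TGACATCA on the opposite strand. The stretches are chr1:191183334-191183368, chr4:95052235-95052292 and chr12:27342728-27342785 on the minus strand and chr13:5861345-5861402 on the plus strand. Distances are from the RefSeq starts, which differ from the GENCODE annotation for some genes. The RefSeq start used for Atf3 lies inside the longer GENCODE gene span. That for Sox11 lies upstream of the GENCODE gene, and that for Klf6 a few bases inside it. A match describes letters and shows no binding.
Atf3: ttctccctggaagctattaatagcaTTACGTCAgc
Jun: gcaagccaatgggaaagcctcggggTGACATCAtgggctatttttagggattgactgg
Sox11: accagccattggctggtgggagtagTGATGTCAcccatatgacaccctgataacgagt
Klf6: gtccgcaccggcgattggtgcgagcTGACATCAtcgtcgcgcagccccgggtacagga

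Cells had 13932 to 2978345 reads, with a median of 839147. They were clustered without the 7 genes, and clusters were named from marker lists. Of 218 neuron-like CAST/Ei cells 62 were cultured and the rest naive, and in C57BL/6 there were 34 cultured and 85 naive ones. The other cultured cells were glia-like (24 in CAST/Ei, 34 in C57BL/6) or fibroblast-like (13 in CAST/Ei, 43 in C57BL/6). Unnamed naive cells were those of cluster 6 (18 CAST/Ei, 16 C57BL/6), led by interferon-induced and endothelial genes such as Tgtp2 and Flt1, and the 31 C57BL/6 cells of cluster 8. Cluster 8 had a high neuron list but held the mural marker Rgs5 among its leading genes, and it is added below where named. All 18 neuron markers had reads in each neuron-like group, with a summed level of 14099 CPM (reads of the markers scaled to a fixed total per group) in cultured and 20902 CPM in naive CAST/Ei cells, and of 12753 CPM in cultured and 20585 CPM in naive C57BL/6 cells. All 14 markers of satellite and Schwann glia were read in them too, with 3423 CPM in cultured against 2709 CPM in naive CAST/Ei cells, and 3804 CPM in cultured against 2601 CPM in naive C57BL/6 cells. Of the 10 fibroblast markers in the table, all had reads there and 8 were at least 2-fold higher after culture in each strain, with a summed level of 1558 CPM in cultured and 483 CPM in naive CAST/Ei cells, and of 1585 CPM in cultured and 461 CPM in naive C57BL/6 cells. The part of both lists in the values below was not tested.

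In neuron-like cells, most of the 7 genes were higher after culture in both strains, with Sox11 and Gadd45a farthest apart from naive cells in summed reads and Stat3 least. By the mean of log2(CPM + 1) over cells Sox11 was again first, Atf3 (3.10 higher) came before Gadd45a (2.94 higher) in C57BL/6, and Stat3 was lower in cultured cells of both strains. For each group the reads of its neuron-like cells were added up, and a gene was counted as higher where the ratio of CPM + 1 was at least 2-fold. In CAST/Ei cells 5 of 7 genes were higher after culture and 0 lower, where 22.7% of all genes were higher and 23% lower. In C57BL/6 cells 6 of 7 were higher and 0 lower, where 21.1% of all genes were higher and 23% lower. With cluster 8 among the naive C57BL/6 cells the count was again 6 of 7 higher and 0 lower, where 20.8% of all genes were higher and 24.3% lower. The median log2 ratio of the 7 was 1.43 in CAST/Ei and 1.73 in C57BL/6, against 0.00 and -0.12 over all genes. Since the 7 were chosen with earlier results of these data known, the values over all genes give scale and no test. The intervals below are exact 95% Poisson intervals, and they cover counting error only.

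**Figure D1:**
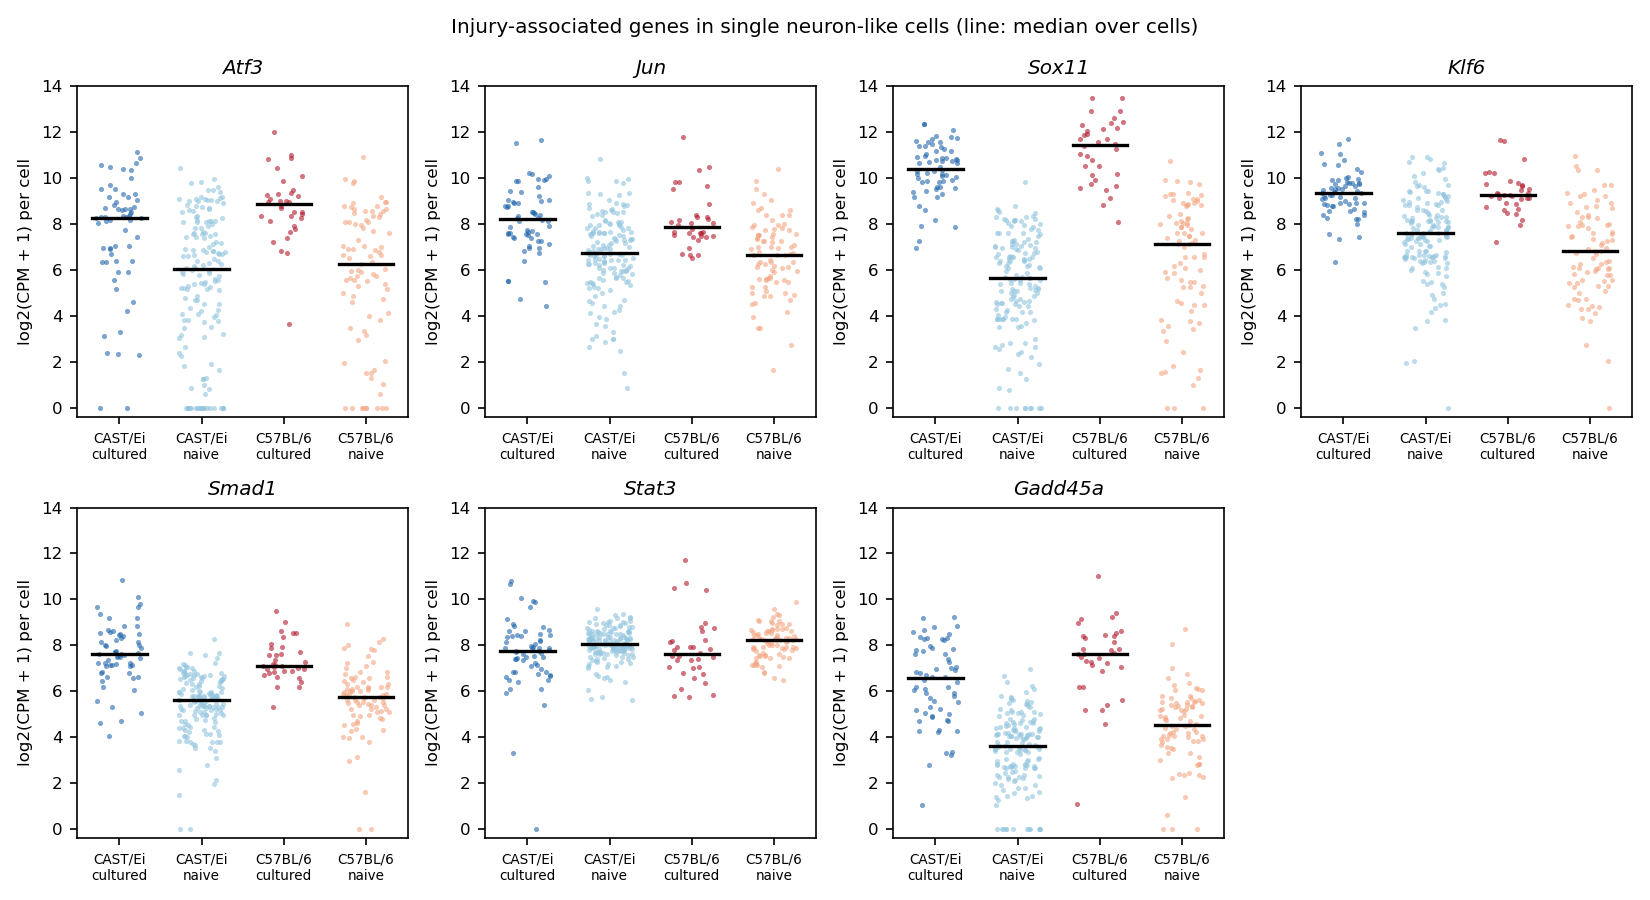
Level of each gene in every neuron-like cell, as log2(CPM + 1), with cultured and naive cells of CAST/Ei (blue) and C57BL/6 (red) side by side; each point is 1 cell and the bar is the median over cells. All cultured cells lie above the naive median for Sox11, while for Stat3 the cultured medians lie below the naive ones.

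Sox11 (chromosome 12, 27334264 to 27342574, minus strand, as for all positions given here in the GENCODE annotation of build GRCm38) had 122.2 CPM in the lowest, 1359.8 in the median and 5175 in the highest cultured CAST/Ei cell, against 0, 48.5 and 899 CPM in naive CAST/Ei cells. C57BL/6 cells had 271, 2776 and 11416 CPM of it in the lowest, median and highest cultured cell, against 0, 138.7 and 1715 CPM in naive cells. Every cultured neuron-like cell of both strains exceeded the naive median of its strain, and 46 of 62 CAST/Ei and 22 of 34 C57BL/6 cells exceeded the highest naive cell. Summed over cells, Sox11 came to 1842 CPM (1831 to 1852) in cultured and 103.9 CPM (102.3 to 105.5) in naive CAST/Ei cells, a log2 ratio of 4.14. The sums were 3242 CPM (3215 to 3268) in cultured and 268 CPM (264 to 272) in naive C57BL/6 cells, a log2 ratio of 3.59. These ratios exceeded those of 99.1% of all genes in CAST/Ei and 98.1% in C57BL/6.

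Gadd45a (chromosome 6, 67035096 to 67037457, minus strand) was low in naive neuron-like cells and higher in nearly all cultured ones. It had 1.04, 93.5 and 596 CPM in the lowest, median and highest cultured CAST/Ei cell, against 0, 11.4 and 125.3 CPM in naive CAST/Ei cells. Its C57BL/6 values were 1.14, 198 and 2048 CPM in cultured cells, against 0, 22.4 and 418 CPM in naive cells. The ranges overlapped in both strains, with 57 of 62 cultured CAST/Ei and 33 of 34 cultured C57BL/6 cells above the naive median. The summed level was 191 CPM (188 to 195) in cultured and 17.3 CPM (16.6 to 17.9) in naive CAST/Ei cells, a log2 ratio of 3.398. It was 335 CPM (327 to 344) in cultured and 35.0 CPM (33.6 to 36.4) in naive C57BL/6 cells, a log2 ratio of 3.22. A single cultured C57BL/6 cell held 48.3% of that group's Gadd45a reads, and without the cell with most reads of the gene in each group the C57BL/6 ratio was 2.62. Gadd45a shares 337 exonic bases with E230016M11Rik on the opposite strand, and since it is not given whether counting used strand, reads of the pair cannot be told apart.

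Atf3 (chromosome 1, 191170296 to 191218039, minus strand) differed more between cultured and naive cells in the typical cell than in summed reads. It had 0, 306 and 2242 CPM in the lowest, median and highest cultured CAST/Ei cell, against 0, 63.8 and 1378 CPM in naive CAST/Ei cells. For C57BL/6 these levels were 11.3, 467 and 4057 CPM in cultured cells, against 0, 76.02 and 1944 CPM in naive cells. No read of Atf3 was counted in 3.23% of cultured and 13.5% of naive CAST/Ei cells, or in 0% of cultured and 10.6% of naive C57BL/6 cells. The cultured cells above the naive median were 49 of 62 in CAST/Ei and 33 of 34 in C57BL/6, and the mean of log2(CPM + 1) over cells was 2.07 higher in cultured CAST/Ei and 3.10 higher in cultured C57BL/6 cells. The summed level was 325 CPM (321 to 329) in cultured and 163.97 CPM (161.99 to 165.98) in naive CAST/Ei cells, a log2 ratio of 0.98 and so just short of 2-fold. It was 766 CPM (753 to 779) in cultured and 224 CPM (220.1 to 227) in naive C57BL/6 cells, a log2 ratio of 1.77. The C57BL/6 sum rests in part on 1 cultured cell with 41.9% of its Atf3 reads, the same cell that held the Gadd45a reads, and without the top cell of each group the ratio was 1.32.

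Jun (chromosome 4, 95049034 to 95052222, minus strand), the AP-1 partner of Atf3, had 20.2, 296 and 3226 CPM in the lowest, median and highest cultured CAST/Ei cell, against 0.802, 103.7 and 1793 CPM in naive CAST/Ei cells. The C57BL/6 values were 91.4, 232 and 3565 CPM in cultured cells, against 2.08, 100.4 and 1330.4 CPM in naive cells. The ranges overlapped, and 56 of 62 cultured CAST/Ei and 31 of 34 cultured C57BL/6 cells exceeded the naive median. The summed level was 419.5 CPM (415 to 425) in cultured and 161.3 CPM (159.3 to 163.3) in naive CAST/Ei cells, a log2 ratio of 1.37. It was 564 CPM (553 to 575) in cultured and 175 CPM (171.9 to 178) in naive C57BL/6 cells, a log2 ratio of 1.68. Jun shares 232 exonic bases with the antisense gene Junos, and those reads cannot be told apart either.

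Klf6 (chromosome 13, 5861482 to 5870394, plus strand) had 78.7, 648 and 3344 CPM in the lowest, median and highest cultured CAST/Ei cell, against 0, 191 and 1947 CPM in naive CAST/Ei cells. C57BL/6 cells had 148.3, 608 and 3185 CPM of it in culture, against 0, 111.9 and 1977 CPM when naive. On the log2 scale the cultured cells formed the narrower band, and 58 of 62 in CAST/Ei and 34 of 34 in C57BL/6 lay above the naive median. The summed level was 871 CPM (863 to 878) in cultured and 323 CPM (321 to 326) in naive CAST/Ei cells, a log2 ratio of 1.43, and 939 CPM (925 to 953) in cultured and 283 CPM (279 to 287) in naive C57BL/6 cells, a log2 ratio of 1.73.

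Smad1 (chromosome 8, 79338395 to 79399518, minus strand) had 15.7, 196 and 1836 CPM in the lowest, median and highest cultured CAST/Ei cell, against 0, 48.3 and 305 CPM in naive CAST/Ei cells. Its C57BL/6 levels were 38.96, 137.8 and 715 CPM in cultured cells, against 0, 53.2 and 479.7 CPM in naive cells. In CAST/Ei 19 of 62 cultured cells exceeded the highest naive cell, and in C57BL/6 2 of 34 did. The summed level was 384 CPM (379 to 389) in cultured and 62.9 CPM (61.6 to 64.1) in naive CAST/Ei cells, a log2 ratio of 2.59. It was 229 CPM (222 to 236) in cultured and 72.4 CPM (70.4 to 74.5) in naive C57BL/6 cells, a log2 ratio of 1.65.

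Stat3 (chromosome 11, 100885098 to 100939540, minus strand) was the exception, with a sum and a typical cell that pointed opposite ways. It had 0, 216 and 1807 CPM in the lowest, median and highest cultured CAST/Ei cell, against 47.6, 267 and 756 CPM in naive CAST/Ei cells. Its C57BL/6 levels were 52.4, 194 and 3380.4 CPM in cultured cells, against 88.02, 299.8 and 937 CPM in naive cells. Most cultured cells lay below the naive median, with 22 of 62 in CAST/Ei and 9 of 34 in C57BL/6 above it, while the highest cultured cells exceeded every naive cell. The summed level was 376 CPM (371 to 380.3) in cultured and 282 CPM (279 to 284) in naive CAST/Ei cells, a log2 ratio of 0.41, but the mean of log2(CPM + 1) over cells was 0.41 lower in cultured cells. The sums were 506 CPM (495 to 516) in cultured and 346 CPM (341 to 350.1) in naive C57BL/6 cells, a log2 ratio of 0.55, with a mean log2 level 0.32 lower in cultured cells. Stat3 shares 72 exonic bases with Stat5a on the opposite strand.

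Per kilobase of exon, the order of levels changed with culture. In naive neuron-like cells Atf3 had the highest level, 76.1 CPM per kb in CAST/Ei and 103.9 in C57BL/6, followed by Klf6 at 73.7 in CAST/Ei and 64.4 in C57BL/6, while Sox11 stood at 12.5 in CAST/Ei and 32.2 in C57BL/6. In cultured neuron-like cells Sox11 had the highest level, 222 CPM per kb in CAST/Ei and 390.0 in C57BL/6. Smad1 and Stat3 were the 2 lowest in cultured cells, with Smad1 at 61.3 and Stat3 at 39.4 CPM per kb in CAST/Ei, and Smad1 at 36.6 and Stat3 at 53.1 in C57BL/6.

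**Figure D2:**
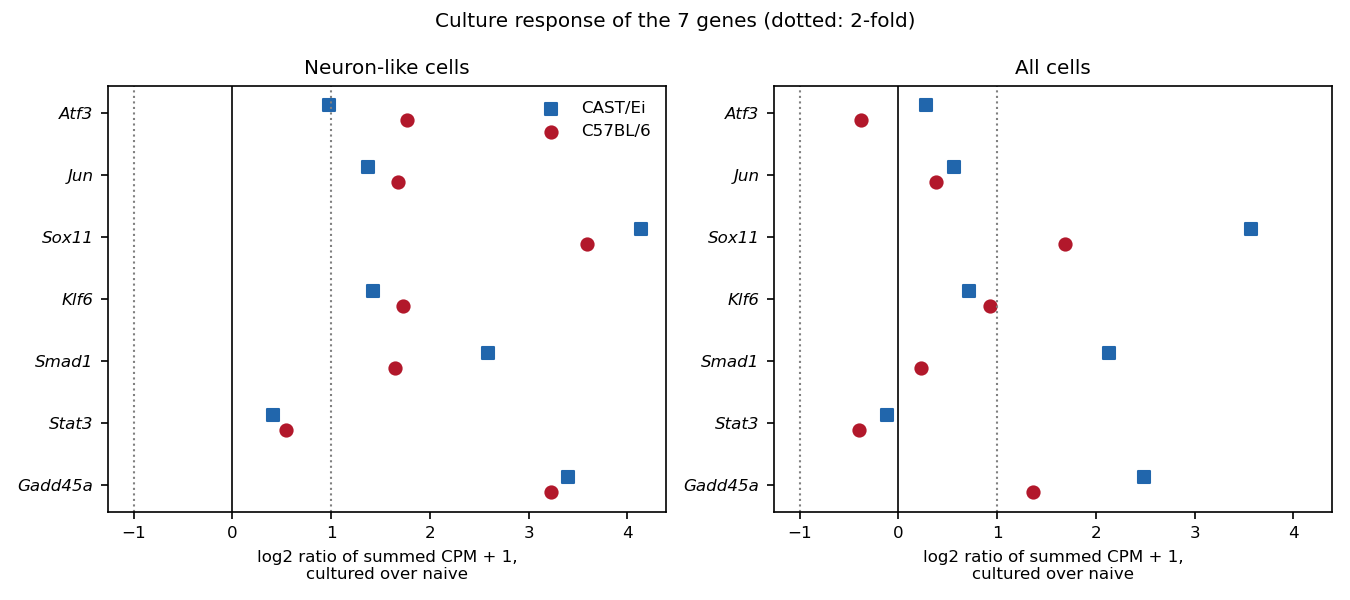
Log2 ratio of summed CPM + 1, cultured over naive, for each gene in CAST/Ei (squares) and C57BL/6 (circles), in neuron-like cells (left) and in all cells (right); dotted lines mark 2-fold. In neuron-like cells all 14 ratios are above 0, while over all cells Stat3 is below 0 in both strains and Atf3 in C57BL/6.

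Over all cells, whose cell types differed between the preparations, fewer of the 7 genes passed 2-fold. In this comparison 3 of 7 genes (Sox11, Smad1 and Gadd45a) were at least 2-fold higher in cultured than in naive CAST/Ei cells, against 22.5% of all genes. In C57BL/6 there were 2 of 7 (Sox11 and Gadd45a), against 23% of all genes. Atf3 had 254 CPM in all cultured and 209 CPM in all naive CAST/Ei cells, and 252 CPM in all cultured and 326 CPM in all naive C57BL/6 cells. In the naive cells of cluster 6 all 3 of the following genes stood above the neuron-like level of their strain, with Atf3 at 678 CPM in CAST/Ei and 1087 CPM in C57BL/6, Jun at 1373 CPM in CAST/Ei and 1100.2 CPM in C57BL/6, and Klf6 at 1943 CPM in CAST/Ei and 1256 CPM in C57BL/6. Without cluster 6 the counts were 5 of 7 in CAST/Ei, where 25.3% of all genes were higher, and 4 of 7 in C57BL/6, where 27.6% were. Sox11 had 101.9 CPM in CAST/Ei and 103.99 CPM in C57BL/6 cells of cluster 6, which was near the naive neuron-like level in CAST/Ei and below it in C57BL/6. Fos stood at 4292 CPM in CAST/Ei and 3346 CPM in C57BL/6 cells of cluster 6, against 491 CPM in naive neuron-like CAST/Ei and 463 CPM in naive neuron-like C57BL/6 cells.

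Non-neuronal cultured cells shared some of the genes. In glia-like cultured cells Klf6 stood at 684 CPM in CAST/Ei and 842 CPM in C57BL/6, and Jun at 462 CPM in CAST/Ei and 473 CPM in C57BL/6, close to cultured neuron-like levels. Atf3 was lower there, at 193 CPM in CAST/Ei and 195 CPM in C57BL/6, and lower again in fibroblast-like cells, at 94.1 CPM in CAST/Ei and 96.9 CPM in C57BL/6. Sox11 had 543 CPM in CAST/Ei and 156.1 CPM in C57BL/6 glia-like cells, and Gadd45a 42.1 CPM in CAST/Ei and 54.9 CPM in C57BL/6. Smad1 had 121.04 CPM in CAST/Ei and 32.7 CPM in C57BL/6 glia-like cells. In both strains the summed levels of Sox11, Gadd45a, Smad1 and Atf3 were higher in cultured neuron-like than in cultured glia-like or fibroblast-like cells. Stat3 had 165.8 CPM in CAST/Ei and 234 CPM in C57BL/6 glia-like cells, below the neuron-like sums. The C57BL/6 value was above the 206 CPM of the C57BL/6 neuron-like cells of cluster 3. The CAST/Ei value was below that of the CAST/Ei cells of cluster 3.

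**Figure D3:**
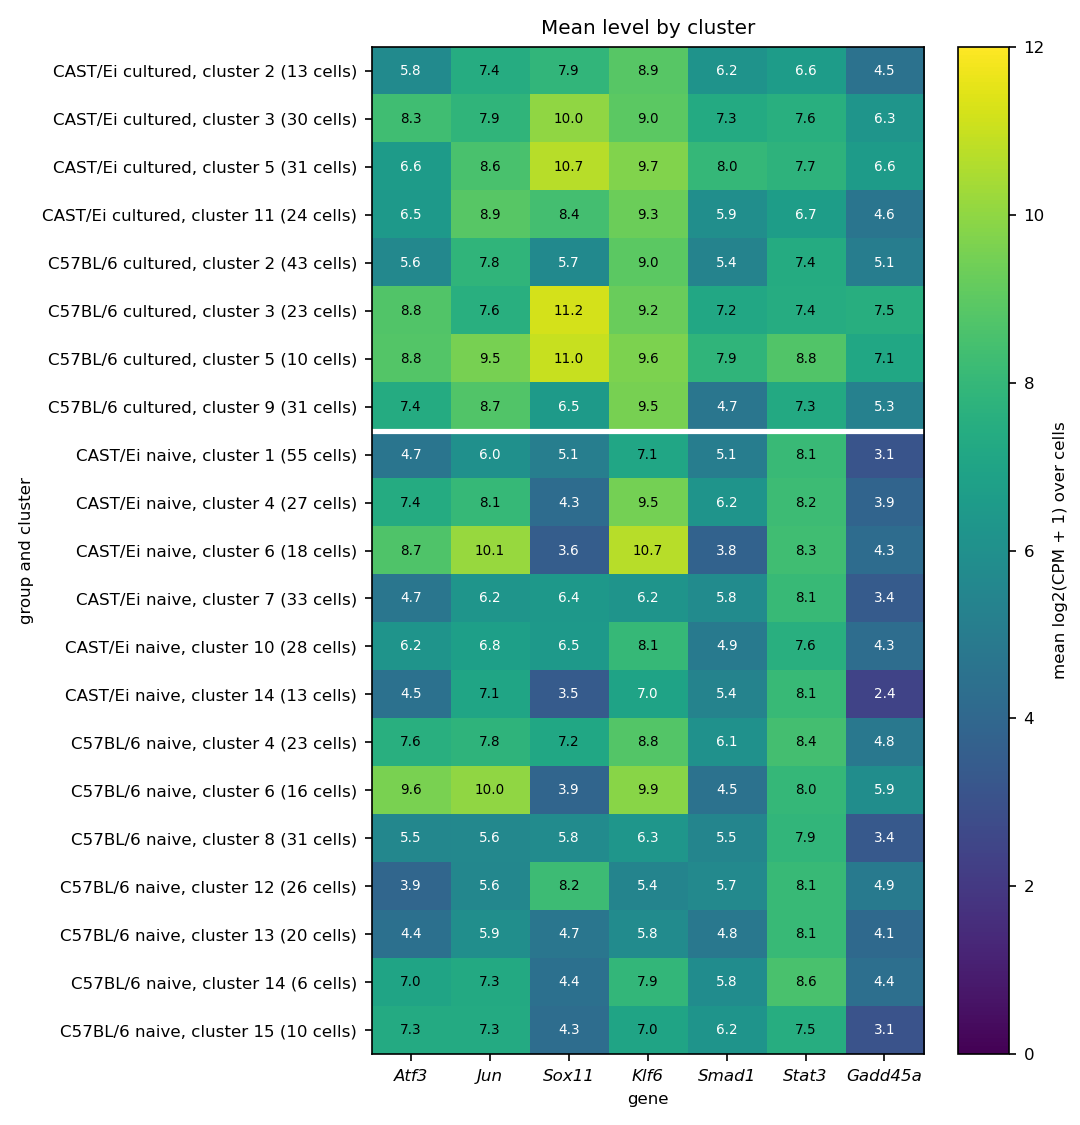
Mean log2(CPM + 1) of each gene over the cells of a cluster (colour and number), with cultured cells above the white line and naive cells under it; only clusters with at least 5 cells of a group are drawn. Sox11 and Gadd45a are highest in the cultured neuron-like clusters 3 and 5, while Jun and Klf6 are highest in naive cluster 6.

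Cultured neuron-like cells formed 2 clusters in which the genes differed. Cluster 3 (30 CAST/Ei and 23 C57BL/6 cells, median of 9017 genes with a read) was led by Serpinb1a, Nts, Sprr1a and Gal, and cluster 5 (31 CAST/Ei and 10 C57BL/6 cells, median of 4649 genes) by Gmip, Nkain1 and Npy. The glia list had a mean log2 level of 3.59 in cluster 5 and 5.87 in cluster 3. Jun had 512 CPM in cluster 5 and 273 CPM in cluster 3 of CAST/Ei, and 1139.8 CPM in cluster 5 and 214 CPM in cluster 3 of C57BL/6. Stat3 had 464 CPM in cluster 5 and 231 CPM in cluster 3 of CAST/Ei, and 998 CPM in cluster 5 and 206 CPM in cluster 3 of C57BL/6. Set against naive neuron-like cells, cluster 3 alone gave log2 ratios of 0.76 in CAST/Ei and 0.29 in C57BL/6 for Jun, and of -0.28 in CAST/Ei and -0.75 in C57BL/6 for Stat3. Cluster 5 alone gave 1.66 in CAST/Ei and 2.70 in C57BL/6 for Jun, and 0.72 in CAST/Ei and 1.53 in C57BL/6 for Stat3. For Sox11 and Gadd45a all 8 such log2 ratios were above 2. The 10 C57BL/6 cells of cluster 5 include the cell named above that held the most Gadd45a reads of its group. Cells of cluster 5 had fewer genes with a read, and the part of this in the difference was not tested.

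Among naive neuron-like cells the level went with the cluster. Cluster 4, led by genes that include the peptide gene Tac1, had Klf6 at 873 CPM in CAST/Ei and 629 CPM in C57BL/6, Jun at 361 CPM in CAST/Ei and 320.2 CPM in C57BL/6, and Atf3 at 334 CPM in CAST/Ei and 390.3 CPM in C57BL/6. In C57BL/6 cluster 12, which holds Mrgprd among its leading genes, the same genes were low, with Klf6 at 67.2, Jun at 61.1 and Atf3 at 59.6 CPM, while Sox11 stood at 376 CPM. Every naive cell of cluster 12 had Sox11 reads, between 92.6 and 851 CPM with a median of 287 CPM. Stat3 varied least, between 221 and 325 CPM over the named naive clusters of CAST/Ei and between 201 and 440.3 CPM over those of C57BL/6.

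How many of the 7 genes a single cell carried was compared at equal depth, after each cell with enough reads had been thinned to 100000 reads, and a gene counted as detected with at least 5 of them. Cultured neuron-like cells carried a median of 7 of the 7 genes and naive ones a median of 4, in both strains. All 7 were detected in 33 of 60 cultured CAST/Ei cells (55%, exact 95% interval 41.6 to 67.9) and in 4 of 150 naive ones (2.67%, 0.731 to 6.69). In C57BL/6 they were detected in 22 of 30 cultured cells (73.3%, 54.1 to 87.7) and in 9 of 81 naive ones (11.1%, 5.21 to 20.05). Atf3, Jun and Sox11 together were found in 47 of 60 cultured (78.3%, 65.8 to 87.9) and 46 of 150 naive CAST/Ei cells (30.7%, 23.4 to 38.7). They were found in 29 of 30 cultured (96.7%, 82.8 to 99.9) and 29 of 81 naive C57BL/6 cells (35.8%, 25.4 to 47.2). Gadd45a set the limit, being detected in 73.3% of cultured and 10% of naive CAST/Ei cells, and in 80% of cultured and 23.5% of naive C57BL/6 cells. Without thinning, its shares were 93.5% of cultured and 71.2% of naive CAST/Ei cells, and 94.1% of cultured and 84.7% of naive C57BL/6 cells.

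**Figure D4:**
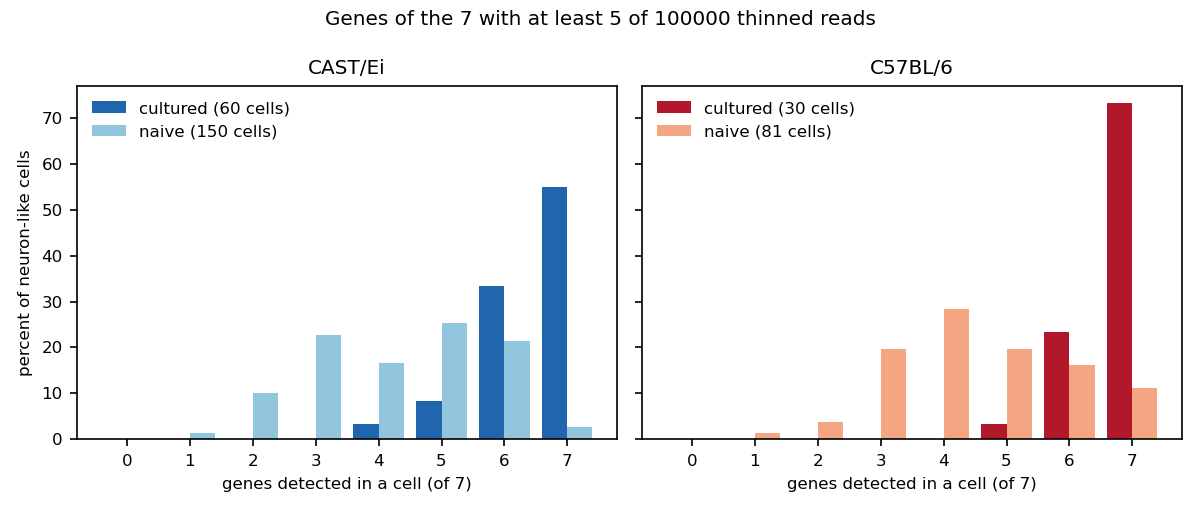
Percent of neuron-like cells (bars) by how many of the 7 genes had at least 5 of 100000 thinned reads, for cultured and naive cells of CAST/Ei (left) and C57BL/6 (right). Cultured cells pile up at 6 and 7 genes, with 55% at 7 in CAST/Ei and 73.3% in C57BL/6, while naive cells spread from 1 to 7.

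Detection together did not mean that levels moved together from cell to cell. Spearman's rho was computed for the 21 pairs across the neuron-like cells of each group (numbers of cells as above). It is a description, since the labels do not tell which cells share an animal, culture or chip, and cells differ in depth. In naive cells Atf3, Jun and Klf6 formed a trio, with a rho of 0.71 in CAST/Ei and 0.70 in C57BL/6 for Atf3 and Jun, 0.53 in CAST/Ei and 0.68 in C57BL/6 for Atf3 and Klf6, and 0.61 in CAST/Ei and 0.66 in C57BL/6 for Jun and Klf6. In the 9 sets of at least 10 naive cells from 1 named cluster and strain, rho of Atf3 and Jun lay between 0.37 and 0.76, that of Atf3 and Klf6 between 0.30 and 0.84, and that of Jun and Klf6 between 0.09 and 0.74. In cultured cells the rho of Atf3 and Jun was 0.01 in CAST/Ei and 0.29 in C57BL/6, and that of Atf3 and Klf6 was -0.03 in CAST/Ei and -0.25 in C57BL/6, and that of Jun and Klf6 was 0.26 in CAST/Ei and 0.31 in C57BL/6. These cultured values pool clusters 3 and 5, whose levels differ. In cluster 3 alone rho was 0.26 in CAST/Ei and 0.46 in C57BL/6 for Atf3 and Jun, 0.40 in CAST/Ei and 0.23 in C57BL/6 for Atf3 and Klf6, and 0.42 in CAST/Ei and 0.50 in C57BL/6 for Jun and Klf6. In cluster 5 the same pairs had 0.13, -0.07 and -0.13 in the 31 CAST/Ei cells and 0.03, -0.68 and 0.01 in the 10 C57BL/6 cells. Of the 21 pairs, 3 in cultured and 6 in naive CAST/Ei cells reached a rho of 0.3, as did 5 in cultured and 6 in naive C57BL/6 cells. Sox11 and Gadd45a reached 0.34 in cultured CAST/Ei, 0.33 in cultured C57BL/6 and 0.38 in naive C57BL/6 cells.

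**Figure D5:**
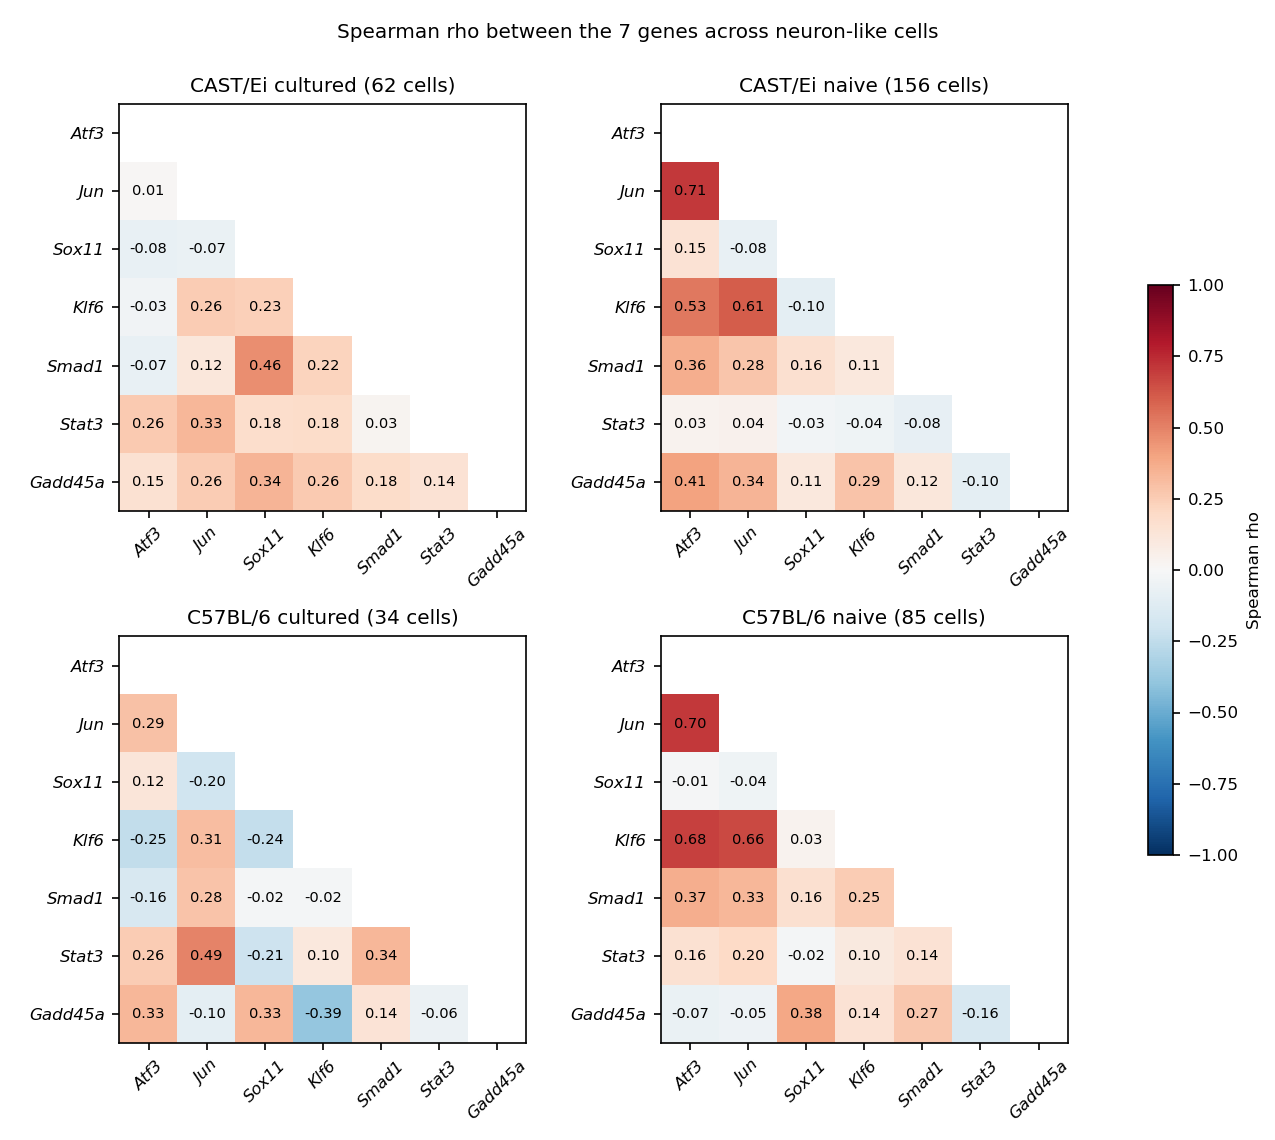
Spearman rho (colour and number) of each pair of genes across the neuron-like cells of the 4 groups, on log2(CPM + 1). The block of Atf3, Jun and Klf6 has a rho of 0.53 to 0.71 in naive cells of both strains, and of -0.25 to 0.31 in cultured cells.

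The same trio followed the immediate early genes in naive cells. The mean log2 level of 12 such genes, among them Fos, Egr1 and Junb, had a rho of 0.68 with Atf3, 0.76 with Jun and 0.69 with Klf6 in naive CAST/Ei cells, and of 0.75 with Atf3, 0.71 with Jun and 0.71 with Klf6 in naive C57BL/6 cells. In cultured cells these values were 0.17 with Atf3, 0.00 with Jun and -0.37 with Klf6 in CAST/Ei, and -0.16 with Atf3, -0.34 with Jun and 0.03 with Klf6 in C57BL/6. Sox11 had a rho of 0.02 with the immediate early genes in naive cells of both strains. The glia list moved with the trio too, with a rho of 0.28 to 0.40 in naive cells. The neuron list had a rho of -0.37 to -0.17 with the trio in the same cells. The part of either list was not tested. The total reads of a cell had a rho of -0.16 to 0.24 with the trio in naive cells.

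Genes most alike to each of the 7 were sought among 7545 genes by the mean rho over the cultured neuron-like cells of both strains (62 and 34 cells). For Atf3 these were Yars and Sars, which encode the tyrosine and serine tRNA synthetases, and Ddit3, which encodes the stress factor CHOP, with a mean rho of 0.59, 0.58 and 0.58. In naive cells their rho with Atf3 lay between -0.09 and 0.27. For Sox11 they were the kinase gene Gsk3b (0.58), the kinesin gene Kif5b (0.56) and the homeobox gene Onecut2 (0.45). Jun was most like Cmip (0.65), Dpysl3 (0.57) and Arhgef12 (0.54). Mean rho stayed under 0.5 for the genes nearest to Klf6 (Pabpc1, 0.41), Smad1 (Rhoq, 0.46), Stat3 (Prph, 0.49) and Gadd45a (Stxbp5, 0.49). These are the highest of many values and were not tested.

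Strains were compared within each state, and these comparisons share their groups with those above. The build mm10 is the only one named for both strains. Whether reads of CAST/Ei and C57BL/6 map to it equally well was not tested, gene by gene or in sum. The neuron-like cells of the strains lay largely in different clusters, since among naive cells clusters 1, 7 and 10 held CAST/Ei and clusters 12, 13 and 15 C57BL/6 cells only, and cultured cells of clusters 3 and 5 numbered 30 and 31 in CAST/Ei and 23 and 10 in C57BL/6. In naive neuron-like cells 0 of 7 genes were at least 2-fold higher in CAST/Ei, where 8.31% of all genes were, and 1 was lower, where 6.39% were. That gene was Sox11, with 103.9 CPM in naive CAST/Ei and 268 CPM in naive C57BL/6 cells, a log2 ratio of -1.36. In cluster 4, which both strains share, Sox11 had 77.99 CPM in naive CAST/Ei and 443 CPM in naive C57BL/6 cells. With cluster 8 among the naive C57BL/6 cells Sox11 was again the 1 lower gene, with a log2 ratio of -1.16 (6.2% of all genes), and 0 were higher (7.23%). Gadd45a was near the limit with 17.3 CPM in naive CAST/Ei and 35.0 CPM in naive C57BL/6 cells, a log2 ratio of -0.98. In cultured neuron-like cells 0 of 7 genes were at least 2-fold higher in CAST/Ei, where 21.4% of all genes were, and 1 was lower, where 14.7% were. That gene was Atf3, with 325 CPM in cultured CAST/Ei and 766 CPM in cultured C57BL/6 cells, a log2 ratio of -1.23, which was -0.70 without the top cell of each group. By cluster it was -0.19 in cluster 3 and -2.21 in cluster 5. The 10 C57BL/6 cells of cluster 5 include the cell that held the most Atf3 reads of its group. The ratio of cluster 5 without that cell is not given. Cultured Sox11 had a log2 ratio of -0.82, CAST/Ei over C57BL/6, which was -1.53 in cluster 3 and -0.09 in cluster 5. Within cluster 3 Sox11 was thus the 1 gene of the 7 at least 2-fold lower in CAST/Ei, where 8.34% of all genes were. Smad1 had a log2 ratio of 0.74, and of 0.38 in cluster 3. Over all cells Smad1 was the only one of the 7 at least 2-fold higher in cultured CAST/Ei cells (15.6% of all genes were), with 267 CPM in CAST/Ei and 77.8 CPM in C57BL/6, and Sox11 the only one at least 2-fold lower in naive CAST/Ei cells (8.08% of all genes were). In those comparisons 0 of 7 were lower in cultured cells (11.9% of all genes) and 0 higher in naive cells (6.71%).

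The partners and pathways of the 7 genes are given from lists chosen with earlier results of these data known, in neuron-like cells and without the 7 themselves. Their counts stand beside the 22.7% of all genes higher and 23% lower in CAST/Ei, and 21.1% higher and 23% lower in C57BL/6. Of 20 AP-1 and CREB/ATF partners in the table, 10 passed 2-fold upwards and 1 downwards in cultured against naive CAST/Ei cells, and 12 higher and 1 lower in C57BL/6, with a median log2 ratio of 1.05 in CAST/Ei and 1.25 in C57BL/6. Fosl2, an AP-1 partner, had 432 CPM in cultured and 62.4 CPM in naive CAST/Ei cells, and Cebpb, a leucine zipper factor, had 43.7 CPM in cultured and 3.47 CPM in naive C57BL/6 cells. Fosb, by contrast, had 25.5 CPM in cultured and 79.3 CPM in naive CAST/Ei cells. Fos had 366 CPM in cultured and 491 CPM in naive CAST/Ei cells, but 882 CPM in cultured and 463 CPM in naive C57BL/6 cells. Both differences of Fos were short of 2-fold. The 12 immediate early genes, with 2 higher and 2 lower in each strain, did not exceed these shares. Dusp1, a phosphatase of the JNK pathway, was among the higher, with 177 CPM in cultured and 73.1 CPM in naive CAST/Ei cells and 439.8 CPM in cultured and 74.2 CPM in naive C57BL/6 cells. Of 15 genes of the JNK cascade 5 were higher and 4 lower in CAST/Ei, and 2 higher and 4 lower in C57BL/6, near or below the shares over all genes except for the higher ones of CAST/Ei.

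Of 14 genes of SMAD and BMP signalling, 8 passed 2-fold upwards and 0 downwards in cultured CAST/Ei cells, and 8 higher and 1 lower in C57BL/6, with a median log2 ratio of 1.503 in CAST/Ei and 1.39 in C57BL/6. Id1, a target of BMP signals, had 69.9 CPM in cultured and 5.91 CPM in naive CAST/Ei cells, and 61.1 CPM in cultured and 4.33 CPM in naive C57BL/6 cells. Smad9 was the lower one in C57BL/6, with 5.31 CPM in cultured and 23.7 CPM in naive cells. The gp130 and STAT list ran otherwise, with 3 of 16 genes higher and 3 lower in CAST/Ei and 2 higher and 7 lower in C57BL/6. In it Socs3, a feedback inhibitor of Stat3 signalling, had 6.37 CPM in cultured and 23.6 CPM in naive C57BL/6 cells, and 29.6 CPM in cultured and 16.9 CPM in naive CAST/Ei cells. Stat5b had 69.2 CPM in cultured and 17.8 CPM in naive CAST/Ei cells, and 84.8 CPM in cultured and 17.1 CPM in naive C57BL/6 cells.

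Of 8 other SOX genes 7 passed 2-fold upwards and 0 downwards in both strains. The 2 leading ones were Sox10 and Sox9 in CAST/Ei and Sox2 and Sox9 in C57BL/6, all of them glial genes. Sox10 had 128.3 CPM in cultured and 1.94 CPM in naive CAST/Ei cells, beside the glia list in which 9 of 14 genes were at least 2-fold higher in CAST/Ei and 11 of 14 in C57BL/6. Sox4, the close relative of Sox11, had 28.5 CPM in cultured and 7.23 CPM in naive CAST/Ei cells, and 56.1 CPM in cultured and 7.54 CPM in naive C57BL/6 cells. Of 12 other KLF genes 6 were higher and 0 lower in CAST/Ei, and 4 higher and 2 lower in C57BL/6. Klf7, another growth-promoting member, had 243 CPM in cultured and 274 CPM in naive CAST/Ei cells, and 200.4 CPM in cultured and 183 CPM in naive C57BL/6 cells. Of 11 GADD45 and p53 target genes 4 were higher and 1 lower in CAST/Ei, and 5 higher and 3 lower in C57BL/6. Cdkn1a, the cell cycle inhibitor p21, had 726 CPM in cultured and 93.2 CPM in naive CAST/Ei cells, and 354 CPM in cultured and 73.7 CPM in naive C57BL/6 cells, whereas Gadd45g had 179 CPM in cultured and 174.3 CPM in naive CAST/Ei cells. At the low end was Sesn1, with 4.17 CPM in cultured and 30.7 CPM in naive CAST/Ei cells. Its C57BL/6 levels were 7.75 CPM in cultured and 24.9 CPM in naive cells.

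Effector genes that injured sensory neurons are known to induce were mostly higher. Of 17 injury and regrowth effectors 12 passed 2-fold upwards and 0 downwards in cultured CAST/Ei cells, and 14 higher and 0 lower in C57BL/6, with a median log2 ratio of 1.99 in CAST/Ei and 2.84 in C57BL/6. The cornified envelope gene Sprr1a, a standard target in injured sensory neurons, had 643 CPM in cultured and 0.647 CPM in naive CAST/Ei cells. The neuropeptide gene Gal had 3881 CPM in cultured and 199 CPM in naive CAST/Ei cells, and 1371 CPM in cultured and 218 CPM in naive C57BL/6 cells. Of 8 sensory identity factors 1 was higher and 4 lower in cultured CAST/Ei cells, and 1 higher and 6 lower in C57BL/6, the lower ones including Isl2 with 20.1 CPM in cultured and 168.7 CPM in naive CAST/Ei cells.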

How the data were processed

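PolyA RNA of single cells was amplified on a microfluidic chip without molecular identifiers, per the labels' protocols. The authors deposited raw counts of reads per gene and cell in 1 table. Per the submitters' processing notes Bowtie2, SAMtools and mm10 were used, with no version or role stated. For the counting program, its use of strand, the annotation and any filter, nothing is given in the sources used here, but no gene in the table has reads in fewer than 60 cells. Each of the 516 columns was matched to its sample by title, and 0 columns were left unused.

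Counts were scaled to CPM, reads of a gene per fixed total. All cells, unfiltered, were clustered on log2(CPM + 1) without the 7 genes (2000 variable genes, 20 principal components, 15 neighbours, Leiden resolution 1; scanpy 1.11.5, leidenalg 0.10.2, Python 3.11.15), which gave 15 clusters. A cluster took the name of the marker list with the highest mean, and stayed unnamed where its 10 leading genes held more markers of another class. No doublet caller was run. Of the macrophage and erythroid markers 1 of 10 and 0 of 5 are in the table, so such cells could not be looked for. No neuron-like cluster held 5 or more cells of both states.

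Reads were summed per group, and genes compared by the log2 ratio of CPM + 1 over all 11251 genes, called at 2-fold. With 1 sample per group there is no test, and intervals (exact Poisson and exact Clopper-Pearson, 95%) cover counting error only, as amplified copies are not independent molecules. The log2 ratio of summed reads and both kinds of interval were tested on simulated data, and the other steps were not. The 7 genes, the gene lists and the marker lists were chosen with earlier results of these data known. Named besides the 7 are the genes at the ends of each list and the 3 genes most alike to each. Others were picked after their values were seen (Fos, Sox4, Klf7, Gadd45g, Gal, Stat5b in C57BL/6, Isl2 in CAST/Ei). Gene positions came from the GENCODE M21 annotation of GRCm38 and promoters from RefSeq.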

Additional observations from a re-analysis of the deposited data

Results flagged for a closer look

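Over all cells, Atf3 had ratios of opposite sign in the strains, with a log2 ratio of cultured over naive cells of 0.28 in CAST/Ei and of -0.37 in C57BL/6. The difference between the strains was not tested. Without the naive cells of cluster 6 the log2 ratios were 0.63 in CAST/Ei and 0.39 in C57BL/6, and among neuron-like cells they were 0.98 in CAST/Ei and 1.77 in C57BL/6.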

How the results depend on the processing

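No ratio called past 2-fold reversed, and of all neuron-like ratios recomputed 313 of 322 kept their sign. Of the recomputed log2 ratios of genes called past 2-fold, 96.1% stayed past it in neuron-like cells (12 settings) and 40 of 42 over all cells (6 settings). Higher genes in cultured neuron-like cells numbered 4 to 6 in CAST/Ei (5 as reported) and 5 to 7 in C57BL/6 (6) over all alternatives. The shares of all genes under those settings are not given here, so both ranges lack a scale. Leaving out naive cluster 6 gave 5 higher genes over all cells in CAST/Ei (25.3% of all genes were higher) and 4 in C57BL/6 (27.6%). The percentages that follow are the shares of all genes called the same way under the same setting. Of cultured neuron-like cells, CAST/Ei over C57BL/6, the 1 lower gene became 3 with median-of-ratios scaling (18.6%) and at 1.5-fold (24.9%), 0 without the cell holding most reads of each gene (11.1%) and 4 in cluster 5 alone (18.9%), and at 1.5-fold 1 gene was higher (33.7%). Over all cultured cells 2 genes were higher at 1.5-fold (27.4%). In naive cells the 1 lower gene became 2 in neuron-like cells with median-of-ratios scaling (7.39%), with the mean of the cells' own CPM (5.85%) and at 1.5-fold (13.6%), and over all cells 0 with a pseudocount of 10 CPM (3.42%), 0 without the top cell (6.93%) and 3 at 1.5-fold (16.5%). Pairs with a rho of at least 0.3 in cultured cells numbered 3 in CAST/Ei, but 5 in thinned cells, 6 at Leiden resolution 2, 5 in cluster 3 and 1 in cluster 5, and 5 in C57BL/6, but 3 in thinned cells and 3 in cluster 5. Shares of at least 50% numbered 25 of 28, and 11 when 20 thinned reads were asked for. The settings by cluster 3, 5, 6 or 8 were chosen after seeing the data. The cause of these changes was not tested. No paired analysis was possible because replicate numbers are cell numbers and each group counts as 1 sample. Cultured C57BL/6 neuron-like cells are the fewest, so single cells weigh most there.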
